A study of Mus musculus with 12 samples.

Results

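The transcription factors that build enteroendocrine cells were followed through 9 genes: Neurog3, Neurod1, Pax4, Pax6, Nkx2-2, Isl1, Insm1, Rfx6 and Fev. They were taken by name from a count table of 18068 mouse genes, and all 9 had a row. RNA came from enteroids, three-dimensional cultures of intestinal epithelium, grown from the ileum of wild-type C57Bl/6 mice, and was read by strand-specific poly(A) sequencing. The 12 libraries formed 4 groups of 3. One group received 1 mM butyrate for 48 h together with 20 ng/mL IL-13 for 72 h, one received butyrate alone, one received IL-13 alone, and one was left untreated; dose and time of each agent were the same alone and combined. The labels do not say whether replicates came from separate cultures or mice. A p-value here therefore reflects the spread among libraries within groups, estimated from all 4 groups together, and that spread may be technical.

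Enteroendocrine cells are scattered hormone-secreting cells of the gut epithelium that arise from the same crypt progenitors as goblet, Paneth and tuft cells. In mice, progenitors that escape Notch signalling express ATOH1, and those that then switch on NEUROG3 for a short time become endocrine. NEUROG3 acts before the other 8 factors, which are switched on in its wake and sort the cells into hormone-producing subtypes. Butyrate is a short-chain fatty acid made by gut bacteria and an inhibitor of histone deacetylases; IL-13, which type 2 immune cells secrete, signals to the epithelium through STAT6.

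Sequencing depth was 13867982 to 15618074 counts per library with both agents and 17006538 to 24294456 with butyrate. It was 14239405 to 15008598 counts with IL-13, against 16303915 to 22558599 in untreated enteroids. Levels are given as CPM, counts scaled by the TMM-normalised library size. The sum of 7 epithelial markers was 8804 to 9028 CPM with both agents, 6549 to 7383 CPM with butyrate, 7544 to 7738 CPM with IL-13 and 6542 to 6774 CPM untreated. Neurons use several of the same factors, and the 7 of 11 neuronal and glial markers measured summed to 2.78 to 6.53 CPM with both agents, 3.68 to 5.51 CPM with butyrate, 6.2 to 9.06 CPM with IL-13 and 4.92 to 5.47 CPM untreated; the neuronal gene Elavl4 had 0, 6, 3 and 3 counts in those groups (libraries summed), and the glial gene Gfap 1, 9, 0 and 5. Tuft markers (8 genes) summed to 13.7 to 23 CPM with both agents, 6.68 to 11.3 CPM with butyrate, 65.9 to 75.7 CPM with IL-13 and 15 to 23 CPM untreated. Mesenchymal markers (5 of 7) summed to 0.395 to 0.796 CPM with both agents, 0.906 to 2.07 CPM with butyrate, 1.44 to 1.97 CPM with IL-13 and 1.72 to 2.44 CPM untreated. Immune markers (6 of 7) summed to 18.2 to 23.7 CPM with both agents, 21.2 to 30.4 CPM with butyrate, 31.6 to 39.4 CPM with IL-13 and 24.1 to 28.7 CPM untreated. Among them Kit, a receptor gene listed as a mast cell marker, averaged 7.4 CPM with both agents, 14.1 with butyrate, 22.1 with IL-13 and 15.4 untreated. Which cells held its RNA was not tested. Kit changed by -1.58 ± 0.20 (log2) for both agents over IL-13 (edgeR adjusted p = 2.3e-05). The other tested immune markers, Cd68 (0.06), Itgam (-0.03) and Lyz2 (-0.16), were not called there. The part of these cell types in the results below was not tested. Butyrate replicate 2 and butyrate + IL-13 replicate 3 stood apart in Lars2, at 5046 and 6980 CPM, where all others lay between 423 and 1433 CPM; counts led with below are also given without that pair.

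Butyrate lowered 7 of the 8 tested factors (2.76% of all tested genes were called lower), IL-13 lowered 1 of 8, Neurog3 (21.7% of all genes), and butyrate with IL-13 lowered all 8 against untreated enteroids (31.5% of all genes). Summed over the 9 genes, the level was 19.6 ± 4.85 CPM with both agents, 38 ± 4.26 with butyrate, 74 ± 8.44 with IL-13 and 83 ± 7.08 in untreated enteroids (SD, n = 3 libraries each). Relative to untreated enteroids this was 23.6% with both agents, 45.7% with butyrate and 89.1% with IL-13. In RNA from whole cultures, fewer cells of a type and less RNA per cell cannot be told apart. All comparisons with untreated enteroids share the same 3 untreated libraries. A gene was called higher or lower at an adjusted p under 0.05 from edgeR's quasi-likelihood test with Benjamini-Hochberg adjustment over the 13750 genes tested. Shares of all genes refer to these 13750. They came from a deposited table that, by its headers, was limited to a corrected p below 1 for IL-13 over untreated. Of the 9 genes, 8 were tested; Pax4, with 24 counts in all, was below the filter on low counts.

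**Figure D1:**
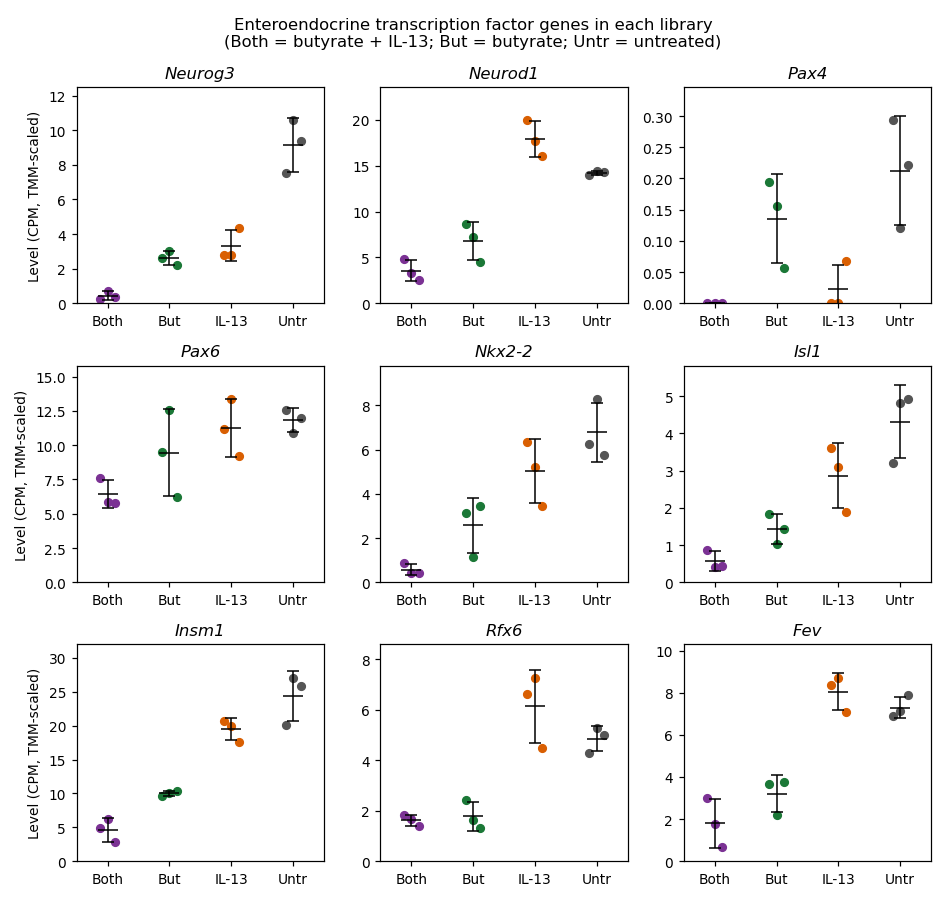
Level of each gene in CPM (linear axis from 0) in every library, with points for the 3 libraries and a bar for mean ± SD in each group. Neurog3 lies below 5 CPM in all treated libraries, while Neurod1 lies at 16.1 to 20 CPM with IL-13 alone, against 14 to 14.4 CPM untreated.

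Neurog3, the factor that commits a progenitor to the endocrine fate (ENSMUSG00000044312, chr10:62133090-62134763, mm10, plus strand, a single exon), gave 0.237, 0.717 and 0.366 CPM with both agents. It had 2.62, 3.01 and 2.21 CPM with butyrate and 2.81, 2.81 and 4.35 CPM with IL-13. Untreated libraries held 7.52, 10.6 and 9.36 CPM. No treated library reached the lowest untreated one, and the 3 libraries with both agents lay below every library with a single agent. IL-13 alone left 36.3% of the untreated mean (log2 fold change -1.46 ± 0.24 SE, edgeR adjusted p = 7e-05), and butyrate alone left 28.5% (-1.80 ± 0.23, edgeR adjusted p = 7.4e-05). With both agents 4.8% remained, 20.6-fold lower by the fit (-4.37 ± 0.33, edgeR adjusted p = 3e-09), which placed Neurog3 46th from the lowest change among 13750 genes. It was also lower with both agents than with IL-13 (-2.91 ± 0.37) and than with butyrate (-2.56 ± 0.37), with edgeR adjusted p of 2.8e-05 and 1.6e-05. These libraries held 3, 9 and 5 reads of Neurog3, so their level is known only coarsely. Its exon shares 273 bases with the opposite-strand gene Fam241b, listed as 2010107G23Rik with 537 to 1271 counts per library; whether counting used strand is not stated, so reads of the shared stretch cannot be assigned with certainty.

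The promoter sequence, from RefSeq on GRCm38.p6, runs from 250 bases before to 50 bases after the annotated start and is shown for 3 of the genes: Neurog3 as the factor that acts first, Nkx2-2 for its site of the kind that NEUROG3 and NEUROD1 bind, and Rfx6 as the one poorest in CpG. They lie at chr10:62132840-62133139 (plus strand), chr2:147186353-147186652 (minus strand) and chr10:51685268-51685567 (plus strand). The starts used for Nkx2-2 and Rfx6 lie within the genes as placed below, not at their first base. Those stretches and their CpG and motif counts therefore describe an internal annotated start. Capitals mark E-boxes (CANNTG, the core recognised by basic helix-loop-helix factors such as ATOH1, NEUROG3 and NEUROD1).
Neurog3: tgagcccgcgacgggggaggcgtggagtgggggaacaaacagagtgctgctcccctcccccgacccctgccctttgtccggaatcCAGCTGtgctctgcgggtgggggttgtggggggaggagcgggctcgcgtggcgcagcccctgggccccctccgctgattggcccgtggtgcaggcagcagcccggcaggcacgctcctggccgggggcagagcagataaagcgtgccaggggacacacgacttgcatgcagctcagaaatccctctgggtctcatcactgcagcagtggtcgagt
Nkx2-2: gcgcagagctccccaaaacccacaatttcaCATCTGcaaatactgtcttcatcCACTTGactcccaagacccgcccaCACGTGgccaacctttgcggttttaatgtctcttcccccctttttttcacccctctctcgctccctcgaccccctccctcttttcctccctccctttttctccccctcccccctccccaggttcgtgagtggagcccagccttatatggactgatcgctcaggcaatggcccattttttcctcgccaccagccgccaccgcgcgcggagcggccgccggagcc
Rfx6: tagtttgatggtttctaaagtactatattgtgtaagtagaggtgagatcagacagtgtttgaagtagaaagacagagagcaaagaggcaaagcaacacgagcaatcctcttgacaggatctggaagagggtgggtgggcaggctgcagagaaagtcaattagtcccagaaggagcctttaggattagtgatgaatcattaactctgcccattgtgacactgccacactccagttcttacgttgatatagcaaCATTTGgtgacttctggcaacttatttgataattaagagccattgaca
RefSeq held 8 promoters for 7 of the 9 genes, and both strands were searched. CANNTG occurred in 6 of these 8 and in 72.3% of all 32851 promoters of this length. The variant CAGATG, which is itself one form of CANNTG and was counted in it, occurred in 1 of the 8, that of Nkx2-2 (read there as CATCTG on the printed strand, at -220 from the start) and in 17.2% of all promoters. The TATA box TATAAA was in 0 of the 8 (13.6% of all), and the GC box GGGCGG in 3, those of Neurod1, Nkx2-2 and Fev (35.7% of all). The observed over expected CpG ratio was 0.547 for Neurog3, 0.791 for Nkx2-2 and 0.156 for Rfx6, with 19, 17 and 2 CpG in the 300 bases; the median over all promoters was 0.384. A match of letters describes the sequence and says nothing about binding in these cultures.

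Neurod1, a basic helix-loop-helix gene that NEUROG3 activates and that mice need for their cholecystokinin and secretin cells (chr2:79452521-79456751, mm10, minus strand), moved differently with IL-13. Its level was 4.82, 3.26 and 2.56 CPM with both agents and 8.6, 7.28 and 4.53 CPM with butyrate. It was 20, 17.7 and 16.1 CPM with IL-13, against 14, 14.4 and 14.3 CPM in untreated enteroids. All 3 IL-13 libraries lay above the untreated ones, but the difference of 0.33 ± 0.19 on the log2 scale did not pass the test (edgeR adjusted p = 0.17). In a fit of only the IL-13 and untreated libraries it did (edgeR adjusted p = 0.022), and the authors' deposited table of that comparison gives Neurod1 a log2 fold change of 0.34 with an FDR of 0.0437. The separation rests on TMM scaling. By library totals the lowest IL-13 library and the highest untreated one both stood at 15.8 CPM. Over the alternatives the log2 change was 0.17 to 0.42. Butyrate lowered Neurod1 below every untreated library (-1.05 ± 0.20, edgeR adjusted p = 0.0024). On top of IL-13 butyrate left 19.8% of the IL-13 mean (-2.34 ± 0.23, edgeR adjusted p = 2.1e-06). Set against untreated enteroids, both agents gave -2.01 ± 0.23 (edgeR adjusted p = 5.5e-07), and against butyrate alone -0.96 ± 0.24 (edgeR adjusted p = 0.0027), where the groups overlapped. Exons of Neurod1 share 201 bases with Cerkl on the same strand, which had 0 to 44 counts per library.

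Insm1, a zinc-finger repressor that keeps endocrine cells from expressing genes of other fates (chr2:146221921-146225016, mm10), was the most abundant of the 9 per length in untreated enteroids. It had 4.82, 6.21 and 2.78 CPM with both agents, 9.58, 10 and 10.4 CPM with butyrate, 20.7, 20 and 17.6 CPM with IL-13, and 20.1, 27.1 and 25.9 CPM in untreated enteroids. The libraries with both agents, with butyrate and without butyrate formed 3 ranges that did not overlap. Butyrate lowered it by 1.29 ± 0.17 on the log2 scale against untreated (edgeR adjusted p = 0.00012), and adding butyrate to IL-13 gave -2.08 ± 0.20 against IL-13 alone (edgeR adjusted p = 2.1e-06). With IL-13 alone the change was -0.33 ± 0.17 (edgeR adjusted p = 0.13); it was called at 0.027 with library totals, 0.025 in the fit of only those groups and 0.045 without the Lars2-high pair.

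Nkx2-2, a homeodomain factor needed for several hormone-producing subtypes in mice (chr2:147177546-147194243, mm10, minus strand), fell furthest after Neurog3 with both agents against untreated. It stood at 0.87, 0.398 and 0.439 CPM with both agents and at 3.13, 1.14 and 3.45 CPM with butyrate. With IL-13 it was at 6.34, 5.22 and 3.47 CPM, and in untreated enteroids at 6.26, 8.3 and 5.76 CPM. Every library with both agents lay below every other one, and the IL-13 and untreated ranges overlapped. Both agents left 8.39% of the untreated mean (-3.57 ± 0.42, edgeR adjusted p = 8.9e-07) and 11.4% of the IL-13 mean (-3.13 ± 0.44, edgeR adjusted p = 7.8e-05). Butyrate alone gave -1.39 ± 0.31 against untreated (edgeR adjusted p = 0.008, but 0.06 without untreated replicate 2). Its exons share 278 bases with the opposite-strand gene Nkx2-2os, listed as Nkx2-2as with 0 to 41 counts per library.

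Pax4, a paired-homeodomain gene of early endocrine precursors (chr6:28442334-28449353, mm10), was close to the limit of detection. It had 0 counts of 43540476 with both agents, 9 of 59603006 with butyrate, 1 of 44243781 with IL-13 and 14 of 60807965 in untreated enteroids. With 3 counts put in place of the 0, and the 14 and 9 counts taken as exact, both agents came out 3.34-fold lower than untreated and 2.19-fold lower than butyrate. The count ratio of IL-13 to untreated was 0.0982 (95% counting interval 0.00232 to 0.645) and that of butyrate to untreated 0.656 (0.25 to 1.63). These intervals cover counting error only, and the 2 folds leave out the counting error of the untreated and butyrate groups. Without a filter on low counts Pax4 was called lower with both agents than untreated (edgeR adjusted p = 0.029), and DESeq2 gave an adjusted p of 0.051. Neither called it for both agents over butyrate (edgeR adjusted p = 0.08, DESeq2 adjusted p = 0.13). The same held for IL-13 over untreated (edgeR adjusted p = 0.13, DESeq2 adjusted p = 0.16).

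Rfx6, a winged-helix factor that enteroendocrine precursors need in mice (chr10:51677756-51730429, mm10), had 1.82, 1.67 and 1.39 CPM with both agents and 2.42, 1.61 and 1.3 CPM with butyrate. With IL-13 it had 6.63, 7.27 and 4.49 CPM, and untreated 4.29, 5.26 and 4.99 CPM. The libraries split by butyrate and not by IL-13: the 6 with butyrate all lay below the 6 without it. Butyrate gave -1.41 ± 0.25 against untreated (edgeR adjusted p = 0.0014) and -1.91 ± 0.28 on top of IL-13 (edgeR adjusted p = 0.0001). Adding IL-13 to butyrate changed it by -0.16 ± 0.30 (edgeR adjusted p = 0.68), the one tested gene of the 9 not called there.

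Fev, an ETS-domain gene best known from serotonin neurons and also expressed in late endocrine precursors of the gut (chr1:74881509-74885419, mm10), also split by butyrate. It had 3, 1.75 and 0.658 CPM with both agents, 3.68, 2.18 and 3.74 CPM with butyrate, 8.36, 8.72 and 7.08 CPM with IL-13 and 6.89, 7.13 and 7.87 CPM in untreated enteroids. All 6 libraries with butyrate lay below all 6 without, as they also did for Neurod1, Insm1, Nkx2-2, Isl1 and Rfx6. For Nkx2-2 and Isl1 the margin was small and was lost when counts were scaled by library totals. Nkx2-2 then had 3.59 CPM in butyrate replicate 3 and 3.4 in IL-13 replicate 3. Isl1 had 1.93 CPM in butyrate replicate 1 and 1.87 in IL-13 replicate 3. How many of all genes split this way was not counted. The log2 fold change of Fev was -1.18 ± 0.28 for butyrate over untreated (edgeR adjusted p = 0.012, but 0.054 without untreated replicate 3). It was -2.17 ± 0.32 for both agents over IL-13 (edgeR adjusted p = 0.00014). Against butyrate alone, both agents gave -0.84 ± 0.34 (edgeR adjusted p = 0.048); the groups overlapped, this call was lost under 15 of 21 alternatives, and without butyrate + IL-13 replicate 3 the value was -0.41.

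Isl1, a LIM-homeodomain gene of several hormone-producing subtypes (chr13:116298281-116309688, mm10), ranged over 0.398 to 0.87 CPM with both agents and 1.04 to 1.84 CPM with butyrate. It lay at 1.9 to 3.6 CPM with IL-13, against 3.19 to 4.93 CPM in untreated enteroids. With both agents its 3 libraries held 11, 5 and 6 reads, the same numbers as those of Nkx2-2. Butyrate gave -1.57 ± 0.31 against untreated (edgeR adjusted p = 0.0031), and both agents gave -2.91 ± 0.38 against untreated and -2.32 ± 0.40 against IL-13 (edgeR adjusted p of 3.3e-06 and 0.00054). With IL-13 alone the change was -0.59 ± 0.30 (edgeR adjusted p = 0.12, but 0.044 with library totals). The change of -1.34 ± 0.42 with both agents against butyrate (edgeR adjusted p = 0.014) lost its call without butyrate replicate 1 (0.07), butyrate + IL-13 replicate 2 (0.057) or butyrate + IL-13 replicate 3 (0.064).

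Pax6, a paired-homeodomain gene that supports hormone expression in mature endocrine cells (chr2:105668896-105703160, mm10), moved least of the 8 tested against untreated enteroids. Its libraries read 7.59, 5.89 and 5.78 CPM with both agents, 9.54, 12.6 and 6.23 CPM with butyrate, 11.2, 13.4 and 9.18 CPM with IL-13, and 12.6, 10.9 and 12 CPM untreated. Only the group with both agents lay apart, below all IL-13 and all untreated libraries. Butyrate alone gave -0.32 ± 0.20 and IL-13 alone -0.07 ± 0.20, neither called (edgeR adjusted p of 0.4 and 0.8). Both agents gave -0.88 ± 0.22 against untreated (edgeR adjusted p = 0.0019) and -0.81 ± 0.22 against IL-13 (edgeR adjusted p = 0.014); leaving out IL-13 replicate 2 gave 0.078 and leaving out butyrate + IL-13 replicate 3 gave 0.073. Against butyrate it was -0.56 ± 0.22 (edgeR adjusted p = 0.043), lost under 12 of 21 alternatives; without butyrate replicate 2 it was -0.31.

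**Figure D2:**
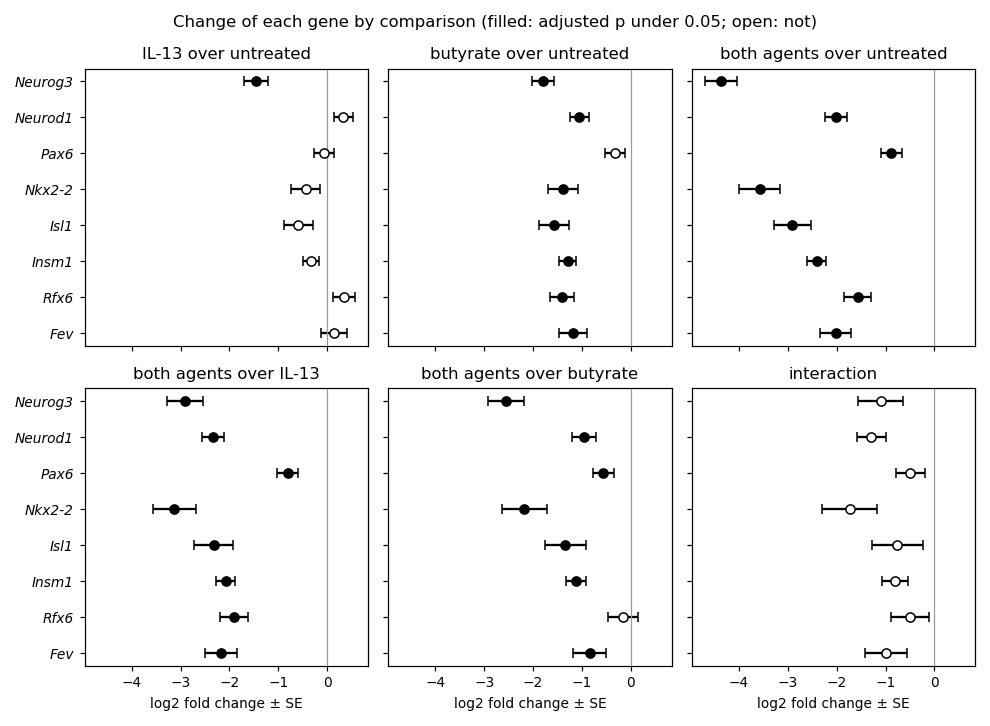
Log2 fold change ± SE of the 8 tested genes in the 5 pairwise comparisons and the interaction, with filled points for an edgeR adjusted p under 0.05. With IL-13 the one filled point is Neurog3; with butyrate 7 points are filled and Pax6 is open; with both agents over untreated and over IL-13 all 8 are filled; for the interaction all 8 lie left of 0 and are open.

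Counted over the list, IL-13 against untreated gave 1 lower, 0 higher and 7 not called, against that background of 21.7% lower and 21.8% higher among all genes. The median log2 fold change was -0.20 over the 8 tested genes and -0.01 over all genes. With TMM-scaled levels the IL-13 and untreated libraries did not overlap for 2 of the 8, Neurog3 below and Neurod1 above. By library totals the ranges of Neurod1 met at 15.8 CPM. Over all genes 59.3% did not overlap in either direction with TMM-scaled levels. The count of called genes was 3 with library totals, 3 in the fit of only those groups and 2 without the Lars2-high pair. In the authors' deposited table of this comparison 2 of the 9 genes had an FDR under 0.05, Neurog3 (log2 fold change -1.45, FDR 3.52e-08) and Neurod1.

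Butyrate against untreated gave 7 lower, 0 higher and 1 not called, against 2.76% lower and 5.14% higher among all genes. The same 7 genes had ranges that did not overlap, which 14.0% of all genes showed in the lower direction. Their change was at least 2-fold in the fit for all 7, as for 1.14% of all genes. The median over the 8 was -1.34, against -0.01 over all genes. The count was 7 without the Lars2-high pair and 6 to 7 with single libraries left out.

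Both agents against untreated gave 8 lower of 8, with 31.5% of all genes called lower and a median of -2.22 against -0.05 over all genes. All 8 had ranges below the untreated ones, as did 35.1% of all genes. Adding butyrate to IL-13, measured against IL-13 alone, also gave 8 lower of 8, with 11.3% of all genes called lower and 9.85% higher, and all 8 ranges apart, with 19.1% of all genes. The median there was -2.24, against -0.01 over all genes. Both counts were 8 without the Lars2-high pair. Adding IL-13 to butyrate, measured against butyrate alone, gave 7 lower and 1 not called, with 24.9% of all genes called lower; 4 of the 8 ranges lay apart, against 26.8% of all genes in that direction, and the median was -1.04 against -0.04. The count of 7 fell to 4 without butyrate replicate 1, without butyrate + IL-13 replicate 2 or without butyrate + IL-13 replicate 3, and to 5 without the Lars2-high pair.

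The interaction asks whether butyrate acts differently in the presence of IL-13: it is the butyrate effect with IL-13 minus the butyrate effect without it, which equals the change with both agents minus the sum of the single changes. It was below 0 for all 8 tested genes, from -1.73 ± 0.56 for Nkx2-2 and -1.29 ± 0.30 for Neurod1 to -0.49 ± 0.30 for Pax6, with a median of -0.89 against -0.02 over all genes. None of the 8 was called (edgeR, 0 of 8, with 0.611% of all genes called lower). At an unadjusted p under 0.05 there were 5 of 8, where 6.95% of all genes were lower at that level, and DESeq2 called 1. The nearest to the threshold was Neurod1 (edgeR adjusted p = 0.054), called under 7 of 20 alternatives at 0.0053 to 0.048, DESeq2 among them. Nkx2-2 (edgeR adjusted p = 0.2) was called only without butyrate replicate 2 (0.032). For Neurog3 the sum of the single changes was -3.26 and the change with both was -4.37, a difference of -1.10 ± 0.46 (edgeR adjusted p = 0.37). For Rfx6 the sum was -1.07 and the change with both -1.57, a difference of -0.50 ± 0.38 (edgeR adjusted p = 0.74).

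**Figure D3:**
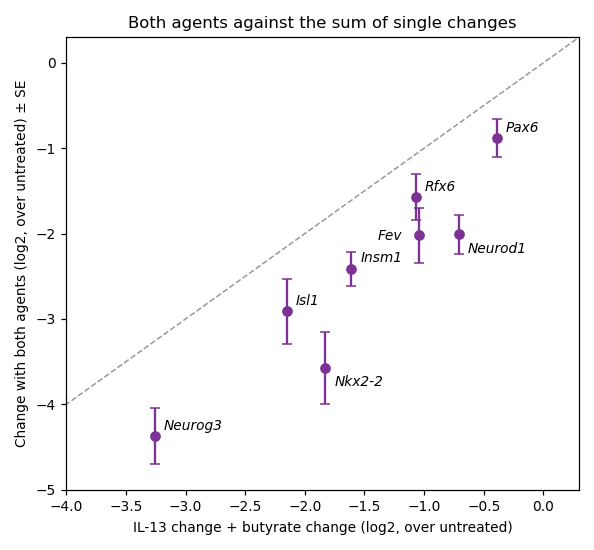
Change with both agents over untreated (vertical axis, log2 ± SE) against the sum of the IL-13 and the butyrate change (horizontal axis, log2) for the 8 tested genes; the dashed line marks equal values. All 8 points lie below the line, by 0.49 for Pax6 to 1.73 for Nkx2-2 on the log2 scale.

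The make-up of the set also differed between groups. Neurog3 held 2.35% ± 1.28 of the reads of the 9 genes with both agents, 6.88% ± 0.746 with butyrate, 4.63% ± 1.85 with IL-13 and 11% ± 0.971 in untreated enteroids (SD, n = 3). By library the shares were 0.987%, 3.53% and 2.54% with both agents, 6.3%, 7.72% and 6.63% with butyrate, 3.53%, 3.6% and 6.77% with IL-13, and 10%, 12% and 11% untreated, so every treated library lay below every untreated one. With IL-13 the log2 ratio of Neurog3 to each of the other 7 tested genes was lower than untreated for all 7, by -1.80 (to Neurod1) to -0.87 (to Isl1). The ranges did not overlap for 5 of the 7; a 2-sided exact permutation test gave p = 0.1 there, the smallest that 3 libraries against 3 allow, and this comparison of ratios cannot pass a threshold of 0.05. All 7 ratios share the same Neurog3 counts, and Neurog3 itself fell with IL-13. How often ratios lie apart over all genes was not counted. As single genes, 59.3% of all tested did not overlap between IL-13 and untreated. With butyrate the ratios were lower by -1.42 (to Pax6) to -0.21 (to Isl1), and 3 of 7 ranges lay apart.

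**Figure D4:**
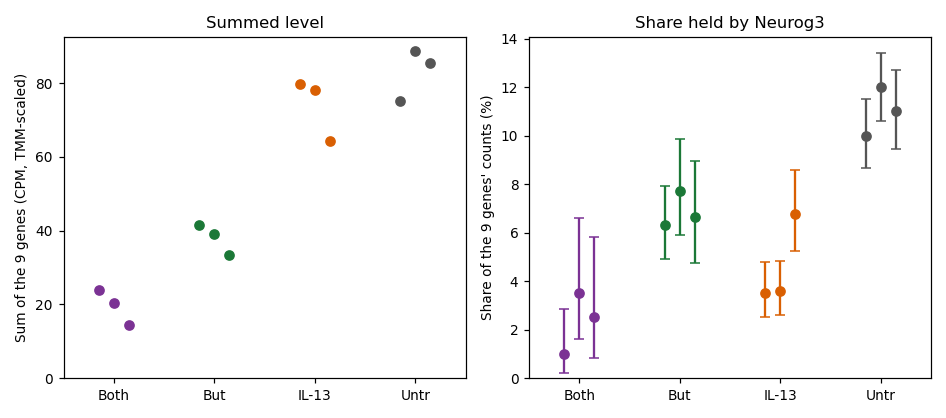
Left, summed level of the 9 genes in CPM for each library; right, share of their reads that belongs to Neurog3, in percent, with exact (Clopper-Pearson) 95% intervals that cover counting error only. The sum with IL-13 is 64.3 to 79.6 CPM, against 75.1 to 88.7 CPM untreated, while the Neurog3 share is 3.53% to 6.77% with IL-13, against 10% to 12% untreated.

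Levels were compared between genes per length, as RPKM (CPM per kilobase of merged exons). With both agents Insm1 (1.48), Neurod1 (1.3), Fev (1.12) and Pax6 (0.549 RPKM) came first, each overlapping the next, and Neurog3 was the sixth at 0.263. With butyrate the order was Insm1 (3.22), Neurod1 (2.49), Fev (1.98) and Neurog3 (1.56 RPKM), again each overlapping the next, with Nkx2-2 (0.896) apart below them. With IL-13 Neurod1 (6.57) and Insm1 (6.27 RPKM) led and overlapped, Fev (4.98) followed, and Neurog3 (1.99) overlapped Nkx2-2 (1.74). In untreated enteroids Insm1 led at 7.86 RPKM, above Neurog3 without overlap. Neurog3 (5.48) overlapped both Neurod1 (5.21) and Fev (4.51 RPKM), Neurod1 lay above Fev, and Nkx2-2 (2.36) lay below all of these. Rfx6 (1.21), Isl1 (1.09) and Pax6 (1.01) overlapped in turn, and Pax4 came last at 0.147 RPKM. The place of Pax6 depends on its merged exons, which span 11694 bases, against 1445 (Pax4) to 4010 (Rfx6) for the other genes. Before division by length, Pax6 averaged 11.8 CPM untreated, above Rfx6 (4.85) and Isl1 (4.31 CPM). Which of its exons the reads came from was not examined.

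Likeness of pattern was described as the root mean square difference of log2 CPM over the 12 libraries, each gene centred on its own mean, among the 10407 genes that averaged 50 counts or more per library. The genes nearest to Neurog3 were Rgs2 (0.52), a regulator of G-protein signalling, Nhs (0.56) and the keratin gene Krt4 (0.56), with Insm1 (0.73) the nearest of the 9. Rgs2 averaged 2.22 CPM with both agents, 9.74 with butyrate, 13.5 with IL-13 and 25.6 in untreated enteroids. Those nearest to Neurod1 were Gng4 (0.20), the serotonin synthesis gene Tph1 (0.22) and the granin gene Chgb (0.23). Insm1 lay nearest to Cplx2 (0.23), Ptprn2 (0.25) and Chgb (0.26), Fev to the hormone genes Gip (0.26) and Sst (0.30) and to Chgb (0.32), and Rfx6 to Anxa8 (0.28), the hormone gene Cck (0.28) and S100g (0.30). Nkx2-2 lay nearest to Chga (0.43), Syt13 (0.48) and Rgs2 (0.48), and to Isl1 (0.41) among the 9. Pax6 had Xrcc5, Nek7 and Rab27b at 0.19, but it varied little, and the median distance of all genes to it was 0.48, against 1.53 for Neurog3. The groups of libraries shape all these distances.

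The wider programme around the 9 genes was counted in 4 lists, each count with the share of all genes called in the same direction. Of 14 upstream lineage genes, IL-13 raised 3 and lowered 2 (21.8% and 21.7% of all genes; median 0.11), shares near or below those of all genes. Atoh1, the gene that opens the secretory lineage, had 10.5 ± 1.35 CPM with both agents, 36.7 ± 3.31 with butyrate, 37 ± 4.55 with IL-13 and 57.9 ± 7.93 in untreated enteroids (SD, n = 3). It fell by 0.65 ± 0.12 on the log2 scale with either agent alone (edgeR adjusted p = 0.00034 with IL-13 and 0.002 with butyrate), and by 1.81 ± 0.14 when butyrate was added to IL-13 (edgeR adjusted p = 1.9e-07). Klf4, a goblet cell differentiation factor, and Dll1, a Notch ligand of secretory progenitors, rose with IL-13 (0.88 ± 0.10 and 0.64 ± 0.10, edgeR adjusted p of 8.3e-07 and 8e-05), and Hes1, a repressor that Notch signalling induces, fell (-0.56 ± 0.08, edgeR adjusted p = 3.1e-05). Butyrate alone lowered 6 of the 14 and raised 0 (2.76% and 5.14% of all genes; median -0.29); the 6 became 2 without untreated replicate 2 or butyrate replicate 1 and 3 without untreated replicate 3. Against IL-13 alone, both agents lowered 7 and raised 1 (11.3% and 9.85% of all genes; median -0.36), with Spdef, a goblet and Paneth cell factor, at -2.16 ± 0.18 (edgeR adjusted p = 2.9e-07).

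Of 26 other regulators linked to enteroendocrine cells, 20 were tested. IL-13 raised 4 and lowered 2 of them (21.8% and 21.7% of all genes; median 0.13), no larger a share than among all genes, and the lower count was 0 to 3 with single libraries left out (0 without IL-13 replicate 2, and 1 without untreated replicate 1, untreated replicate 3 or IL-13 replicate 3). Among the 4 were Tox3 (1.30 ± 0.09), Nkx6-2 (1.16 ± 0.12) and Pdx1 (0.99 ± 0.13), the last a homeodomain gene of the upper gut and pancreas, each with edgeR adjusted p of 8.2e-06 or less. Butyrate lowered 5 and raised 0 (2.76% and 5.14% of all genes; median -0.37), among them Foxa2, a forkhead gene (-0.94 ± 0.16, edgeR adjusted p = 0.00092), and Myt1, a zinc-finger gene of endocrine precursors (-1.44 ± 0.31, edgeR adjusted p = 0.0071). The 5 became 2 or 3 without any 1 of 7 libraries (all untreated, all IL-13 and butyrate replicate 1). Adding butyrate to IL-13 lowered 9 and raised 0 (11.3% and 9.85% of all genes; median -0.91), with Myt1 at -3.18 ± 0.41, Lmx1a, a gene of serotonin-producing cells, at -2.70 ± 0.27 and Foxa2 at -1.78 ± 0.18 against IL-13 alone (edgeR adjusted p of 3.5e-05, 2.9e-06 and 3.3e-06).

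Of 16 hormone genes 11 were tested. IL-13 raised 4 and lowered 0 (21.8% and 21.7% of all genes; median 0.37), with neurotensin, Nts, at 85.1 ± 8.38 CPM, against 54.4 ± 6.14 CPM untreated (log2 fold change 0.65 ± 0.19, edgeR adjusted p = 0.0095, but up to 0.063 with library totals or no filter, where its call was lost); the 4 became 1 without untreated replicate 1 or with library totals, and 2 without IL-13 replicate 1. Butyrate lowered 8 (2.76% of all genes; median -1.13), Cck at 37.8 ± 6.53 CPM against 108 ± 22.7 CPM untreated first among them (-1.51 ± 0.21, edgeR adjusted p = 0.00014), and this count was 3 to 5 without any single untreated or butyrate library. Both agents lowered 10 of 11 against IL-13 (11.3% of all genes; median -2.05). Of 12 tested granin, processing and serotonin genes, IL-13 raised 2 (1 without IL-13 replicate 3) and lowered 1 (21.8% and 21.7% of all genes; median 0.08), smaller shares than among all genes. Butyrate lowered 7 (2.76% of all genes; median -1.16), and both agents lowered 11 against IL-13 (11.3% of all genes; median -2.02). Chga, a granin of endocrine granules, averaged 22.8 ± 4.93 CPM with both agents, 51.7 ± 8.75 with butyrate, 148 ± 11.1 with IL-13 and 156 ± 24.9 in untreated enteroids. The carboxypeptidase gene Cpe was 1 of the 2 raised by IL-13, at 346 ± 27.6 CPM against 66.3 ± 4.13 CPM untreated (2.38 ± 0.09, edgeR adjusted p = 8.8e-13). Butyrate lowered Cpe too, alone against untreated (-0.69 ± 0.09, edgeR adjusted p = 9.6e-05) and on top of IL-13 (-0.67 ± 0.09, edgeR adjusted p = 4.8e-05).

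**Figure D5:**
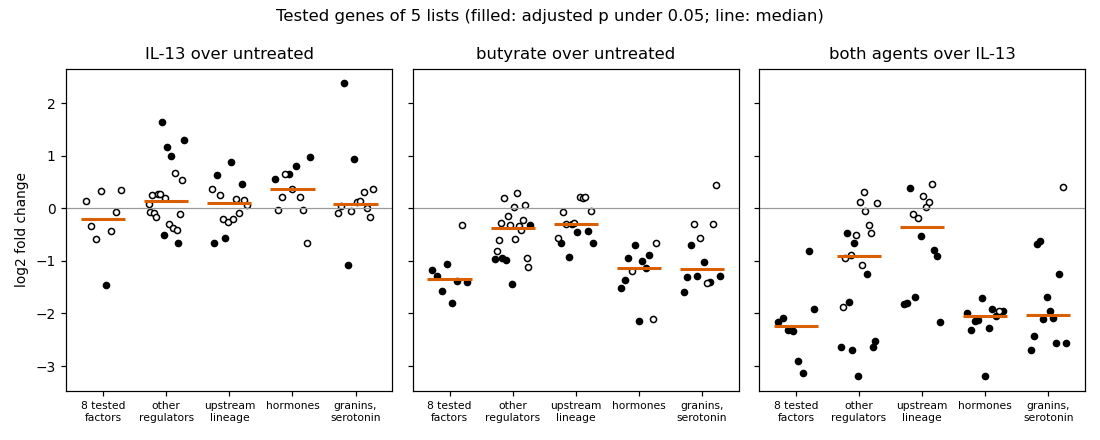
Log2 fold change of every tested gene in 5 lists for IL-13 over untreated, butyrate over untreated and both agents over IL-13, with filled points for an edgeR adjusted p under 0.05 and a line at the median. The medians of the 8 tested factors are -0.20, -1.34 and -2.24, and those of the hormone genes 0.37, -1.13 and -2.05.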

How the data were processed

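Poly(A) RNA of 12 libraries was sequenced, directional per the labels. The deposited table holds whole-number counts per gene and library that the authors had not normalised, with 18092 rows that became 18068 genes after the rows of 23 genes were summed. It also holds a p-value, an FDR and log2 fold changes of the authors' own DESeq comparison (IL-13 over untreated), limited to a corrected p below 1 per the file headers. No row lacked counts in both the untreated and the IL-13 libraries. Genes seen only in libraries with butyrate are thus left out of the shares of all genes. How much this limit moved those shares was not tested. Per the submitters' processing notes the genome build is mm10. The aligner, the counter and the use of strand were not given in the sources used here. Columns headed US were read as untreated, after the table's name for that comparison.

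The quasi-likelihood test of edgeR 4.0.16 (R 4.3.3) was used, with TMM scaling, filterByExpr and a robust glmQLFit. One fit held all 12 libraries, with a coefficient per group. It kept 13750 genes, removed 4318, and had a biological coefficient of variation of 10.2% and 8 residual degrees of freedom. The standard error is the log2 fold change over the square root of F. No pair of replicates matched within sampling noise (chi-square over degrees of freedom 3.82 to 35.8). Exon lengths and overlaps came from GENCODE M21, which held 98.4% of the row identifiers, and promoters from RefSeq. Likeness used log2 CPM with a prior count of 2, ratios of Neurog3 a prior count of 0.5. Alternatives were RLE scaling, library totals, DESeq2 1.42.0, no filter, a mean of at least 50 counts, a replicate block, each library left out, the groups compared fitted alone, thinning to 13867982 counts, and leaving out both Lars2-high libraries. The test was also tried on simulated counts. Members, lists and alternatives were chosen with earlier results of these data known. Genes named from each list were taken from the up to 4 called with the smallest adjusted p per comparison, not all of which are printed, and for likeness the 3 nearest genes of each member with a mean of at least 50 counts; a gene that this rule names among the other regulators is counted but not reported by itself here. Tables and plots were made in Python 3.11.15 (matplotlib 3.10.9, numpy 2.4.6, scipy 1.17.1, pandas 2.3.3).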

Additional observations from a re-analysis of the deposited data

Results flagged for a closer look

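For 12 genes named in the text or in its lists, the butyrate effect with IL-13 differed from the butyrate effect without it by the interaction term of the edgeR fit. None of the 8 tested enteroendocrine transcription factor genes was among them, and Pax4 was not tested. Over all 13750 tested genes, 119 were called for the interaction. Of the lists of the wider programme, Spdef had an interaction of -1.51 ± 0.24 (SE, log2; edgeR adjusted p = 0.0049) and Atoh1 of -1.15 ± 0.18 (edgeR adjusted p = 0.0052), both called under all 20 alternatives run. Lmx1a had -1.71 ± 0.36 (edgeR adjusted p = 0.024), a call lost under 8 of 20 alternatives (up to 0.076). The granin genes Chga and Chgb had -1.11 ± 0.21 and -1.13 ± 0.22 (edgeR adjusted p of 0.015 and 0.019), lost under 2 (up to 0.056) and 8 of 20 (up to 0.14). Klf4 went the other way, at 0.68 ± 0.14 (edgeR adjusted p = 0.021), lost under 6 of 20 (up to 0.077).

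Kit, listed among the immune markers though its cells of origin were not tested, had -1.45 ± 0.26 (edgeR adjusted p = 0.012), called under all 20. The other 5 were named for a pattern like that of a transcription factor gene over the same libraries: Syt13 at -1.55 ± 0.30 (edgeR adjusted p = 0.018), S100g at -0.68 ± 0.14 (edgeR adjusted p = 0.021), Cplx2 at -1.27 ± 0.26 (edgeR adjusted p = 0.022), Rgs2 at -1.21 ± 0.26 and Gng4 at -1.70 ± 0.37 (edgeR adjusted p = 0.031 for both). Their calls were lost under 5 (Syt13), 4 (S100g), 7 (Cplx2), 9 (Rgs2) and 12 (Gng4) of 20 alternatives, at adjusted p up to 0.13. Since these 5 were chosen by likeness to the members over these same libraries, their interactions are not a separate result.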

How the results depend on the processing

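The 8 tested members gave 994 values under alternatives, of which 944 kept direction and side of the threshold, 34 lost and 13 gained a call, and 3 changed sign without being called: Pax6 with IL-13 (0.05 without IL-13 replicate 3; -0.22 to 0.05 with 1 library left out), Fev with IL-13 (-0.02 with library totals), and Rfx6 with both agents over butyrate (0.15 without butyrate replicate 1; -0.33 to 0.15 with 1 library left out). With library totals the median of all genes shifted to -0.18 for IL-13 and -0.34 for both agents over untreated, and to -0.14 over IL-13 and -0.27 over butyrate. Members called with IL-13 were 1, but 3 with library totals or only the groups compared and 2 without both Lars2-high libraries. Members called for both agents over butyrate were 7, and 4 to 7 with 1 library left out. Members called for the interaction were 0, but 1 with library totals, no filter, the replicate block, thinning or DESeq2, and 0 to 1 with 1 library left out. With 1 library left out, genes called were 559 to 1395 for butyrate over untreated (1086 with all), 1935 to 3451 for both agents over IL-13 (2912 with all, 1935 without butyrate + IL-13 replicate 3) and 55 to 213 for the interaction (119 with all; DESeq2 245). Of the lists, the hormones raised by IL-13 were 2 and those lowered by butyrate 3 without a filter; upstream genes and other regulators lowered by IL-13 were 4 each with library totals; and other regulators lowered by butyrate were 3, and by both agents over IL-13 were 4, at a mean of 50 counts. The causes were not tested.

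Replicate numbers did not pair the samples: deviations of same-numbered libraries correlated at -0.151 to 0.097 over 18 pairs, and 2 of 12 libraries correlated best with their own number. A replicate block gave 6 members called for both agents over butyrate, 1 for the interaction and 1, 7, 8 and 8 in the others. Counts of 3 to 11 reads for Neurog3, Nkx2-2 and Isl1 with both agents, and Pax4 throughout, limit precision.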
